A study of Mus musculus with 8 samples.

Results

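Immediate early genes are switched on within minutes of a growth factor, hormone or stress signal, without new protein synthesis, and most of them encode transcription factors or regulators that are made briefly and then removed. The NR4A genes encode orphan nuclear receptors that bind DNA without a known natural ligand, and the EGR genes encode zinc finger factors. SRF is the factor that sits on serum response elements of many such genes, and MYC drives growth and ribosome production. In fibroblasts and mesenchymal progenitors these genes are known as the early transcriptional answer to serum and to tissue disruption.

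The 10 genes described here are Nr4a1, Nr4a2, Nr4a3, Egr1, Egr2, Egr3, Ier2, Ier3, Srf and Myc. They were taken by symbol from a count table of 20781 Ensembl genes, and all 10 were found there and passed the filter on low counts that left 16565 genes for testing. RNA was sequenced from fibro-adipogenic progenitors (FAPs), resident mesenchymal cells of muscle from which fat cells and matrix-forming fibroblasts arise. They came from 3 uninjured leg muscles, quadriceps, gastrocnemius and tibialis anterior, of male wildtype mice labelled C57BL/6 and, in the design text, C57BL/6J. All cells were cultured for 48 h and then received vehicle (4 libraries) or melatonin (4 libraries) for 24 h. The replicates are described as biological, and no age, melatonin dose, pooling of animals or batch is stated in the sources used here. The extraction protocol in the labels names longissimus dorsi as the RNA source, which differs from the 3 muscles named elsewhere, and this was not resolved. With 24 h between the start of treatment and harvest, the values are levels at that time and not the minutes-long induction that gives these genes their name.

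Total counts ran from 45682034 to 52401153 with vehicle and from 35584931 to 49769873 with melatonin. The share of mitochondrially encoded transcripts was 1.05% to 1.3% with vehicle and 2.09% to 2.44% with melatonin, without overlap, and leaving these genes out changed no call among the 10 genes. Melatonin replicate 4 stood apart from its group: the mean chi-square per gene was 58.9 to 74.4 between it and the other 3 melatonin libraries, against 23.5 to 32.2 among those 3 and 29 to 41.2 among the vehicle libraries. All 8 FAP markers were detected, among them Pdgfra at 569.6 ± 52.2 CPM with vehicle and 465 ± 74 CPM with melatonin (mean ± SD, n = 4), where CPM are counts scaled to library size with TMM factors. The FAP markers summed to 14622 to 17319 CPM with vehicle and 7313 to 8287 CPM with melatonin, mostly Col1a1, and 5 of 8 fell and 0 rose by the edgeR test used below (also 0 higher at an unadjusted p under 0.05 and with DESeq2), beside 18.5% lower and 18.1% higher among all tested genes. Summed levels of 8 macrophage markers, led by Lyz2, were 466 to 712 CPM with vehicle and 315 to 592 CPM with melatonin. Of these Csf1r fell (29 ± 4.88 to 17.2 ± 5.35 CPM), C1qa rose (2.39 ± 0.843 to 4.71 ± 1.2 CPM), and the rest did not pass. Those of 6 endothelial markers were 31.2 to 38.3 CPM with vehicle and 46.3 to 55.3 CPM with melatonin. Of the endothelial markers Tek alone rose (17.1 ± 1.51 to 35.3 ± 3.61 CPM), Vwf fell (2.48 ± 0.77 to 0.576 ± 0.383 CPM), and Pecam1, Cdh5, Kdr and Tie1 did not pass. The summed level of 5 mural markers, mostly Notch3, was 71.5 to 98.6 and 64.7 to 104 CPM. Among them Rgs5 fell (2.49 ± 0.483 to 0.875 ± 0.273 CPM), and Notch3 and Myh11 did not pass. Kcnj8 (0.315 ± 0.189 to 0.936 ± 0.0879 CPM) and Abcc9 (2.11 ± 0.284 to 5.49 ± 1.32 CPM) rose. The sum of 5 satellite cell and myoblast markers, mostly Vcam1, was 522 to 723 and 369 to 501 CPM, with Pax7 and Myf5 not analysed here. Vcam1 fell (543 ± 87.1 to 379 ± 29.9 CPM), and the other markers of this list did not pass. Means were higher with melatonin for Myod1 (2.52 ± 0.527 to 4.43 ± 2.38 CPM), Myog (6.48 ± 1.13 to 10.2 ± 4.29 CPM) and Des (43.5 ± 5.82 to 48.6 ± 22.5 CPM). The mean of Cdh15 was lower (1.43 ± 0.639 to 1 ± 0.245 CPM). The 5 adipocyte markers with counts in the table summed to 103 to 108 CPM with vehicle and 637 to 804 CPM with melatonin, and 4 of 5 rose, beside 18.1% of all tested genes. The part of these other cell types in the values below was not tested, and in bulk RNA fewer cells expressing a gene and less RNA per cell cannot be told apart.

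Egr1, Egr3, Ier2 and Myc had no match among the RefSeq promoter windows on GRCm38.p6, the same assembly as mm10, and were not examined for motifs. The upstream sequences of the other 6 of the 10 genes were found there. These sequences are shown because the NR4A genes share a motif that Egr2, Ier3 and Srf do not share to that extent. They run 5′ to 3′ on the strand of the gene, upstream of its annotated start, with bases in any GENCODE exon left out, and capitals mark matches on either strand to the letters given after them.
Nr4a1, plus strand, chr15:101266596-101266845: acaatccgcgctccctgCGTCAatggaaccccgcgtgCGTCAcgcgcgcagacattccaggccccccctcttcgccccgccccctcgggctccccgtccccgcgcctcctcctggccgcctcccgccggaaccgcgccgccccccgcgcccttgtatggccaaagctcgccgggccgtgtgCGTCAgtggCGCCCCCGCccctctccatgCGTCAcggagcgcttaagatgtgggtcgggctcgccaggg
Nr4a2, minus strand, chr2:57124004-57124253: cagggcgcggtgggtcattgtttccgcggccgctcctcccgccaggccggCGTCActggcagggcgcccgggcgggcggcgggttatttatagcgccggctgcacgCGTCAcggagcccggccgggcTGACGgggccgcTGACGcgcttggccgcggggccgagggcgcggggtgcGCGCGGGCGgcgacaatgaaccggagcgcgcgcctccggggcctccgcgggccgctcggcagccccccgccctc
Nr4a3, plus strand, chr4:48045055-48045152: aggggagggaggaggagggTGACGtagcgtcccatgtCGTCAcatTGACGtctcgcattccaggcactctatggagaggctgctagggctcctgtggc
Egr2, plus strand, chr10:67537619-67537868: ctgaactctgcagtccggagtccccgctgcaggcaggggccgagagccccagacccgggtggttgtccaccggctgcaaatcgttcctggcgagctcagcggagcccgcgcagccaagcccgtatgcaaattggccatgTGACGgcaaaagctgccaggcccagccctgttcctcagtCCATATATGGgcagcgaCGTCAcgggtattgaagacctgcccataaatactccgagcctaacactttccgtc
Ier3, plus strand, chr17:35821463-35821683: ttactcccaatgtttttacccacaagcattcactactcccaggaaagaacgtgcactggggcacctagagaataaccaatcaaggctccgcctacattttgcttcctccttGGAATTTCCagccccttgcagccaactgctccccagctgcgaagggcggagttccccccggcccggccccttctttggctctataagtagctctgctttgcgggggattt
Srf, minus strand, chr17:46556176-46556412: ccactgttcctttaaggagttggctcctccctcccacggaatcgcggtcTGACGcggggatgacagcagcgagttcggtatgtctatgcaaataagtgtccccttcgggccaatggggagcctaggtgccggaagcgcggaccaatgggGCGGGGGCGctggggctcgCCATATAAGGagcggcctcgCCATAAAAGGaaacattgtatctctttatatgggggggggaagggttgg

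The letters TGACG, the core of the cyclic AMP response element that CREB binds, were found 4 times in the 300-base window of each of Nr4a1, Nr4a2 and Nr4a3, counting both strands. Of all 32851 RefSeq windows of that length, 20.8% held the motif at least once and 0.231% held it 4 or more times. The fourth match of Nr4a3 lies in a part of its window that is not printed. The CArG box to which SRF binds, with its A and T bases between 2 C and 2 G, was matched 2 times upstream of Srf itself and 1 time in the printed window of Egr2, and 1.63% of all windows held it. The GCGNGGGCG letters of an EGR site were present once each at Nr4a1, Nr4a2 and Srf (5.55% of windows). The letters GGANTTTCC, close to an NF-kB site, were present once at Ier3 (1.25% of windows), and AAAGGTCA, the NR4A site, was in none of the 6 (1.51% of windows). The full element TGACGTCA, which contains the TGACG core on both strands, was also in none of the 6 (1.79% of windows). Egr2 has 5 RefSeq windows, and the one printed holds both a CArG box and TGACG with all 250 upstream bases outside exons. A separate CArG box lies in the Egr2 window that starts at 67537316, and the window just upstream of the GENCODE span of Egr2 holds none of these motifs. The RefSeq starts of the printed Nr4a1, Nr4a3, Egr2, Ier3 and Srf windows lie inside the GENCODE spans given below. Because exon bases are left out, the printed stretches of Nr4a3, Ier3 and Srf end at positions -153, -30 and -14 from those starts. A match is a description of letters. The motifs were chosen after the windows had been read, and the cut of 4 is the number seen at the NR4A genes.

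With melatonin, Egr1, Egr3 and Ier2 rose, and Nr4a2, Nr4a3, Ier3 and Myc fell. Nr4a1, Egr2 and Srf did not pass an edgeR adjusted p of 0.05. Of all tested genes, 36.5% passed in the same comparison, 18.1% higher and 18.5% lower, so with so large a background the 3 higher and 4 lower of 10 are a description of these genes. Members of the same family did not all move alike in size, and the EGR and NR4A genes that passed had opposite directions.

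**Figure D1:**
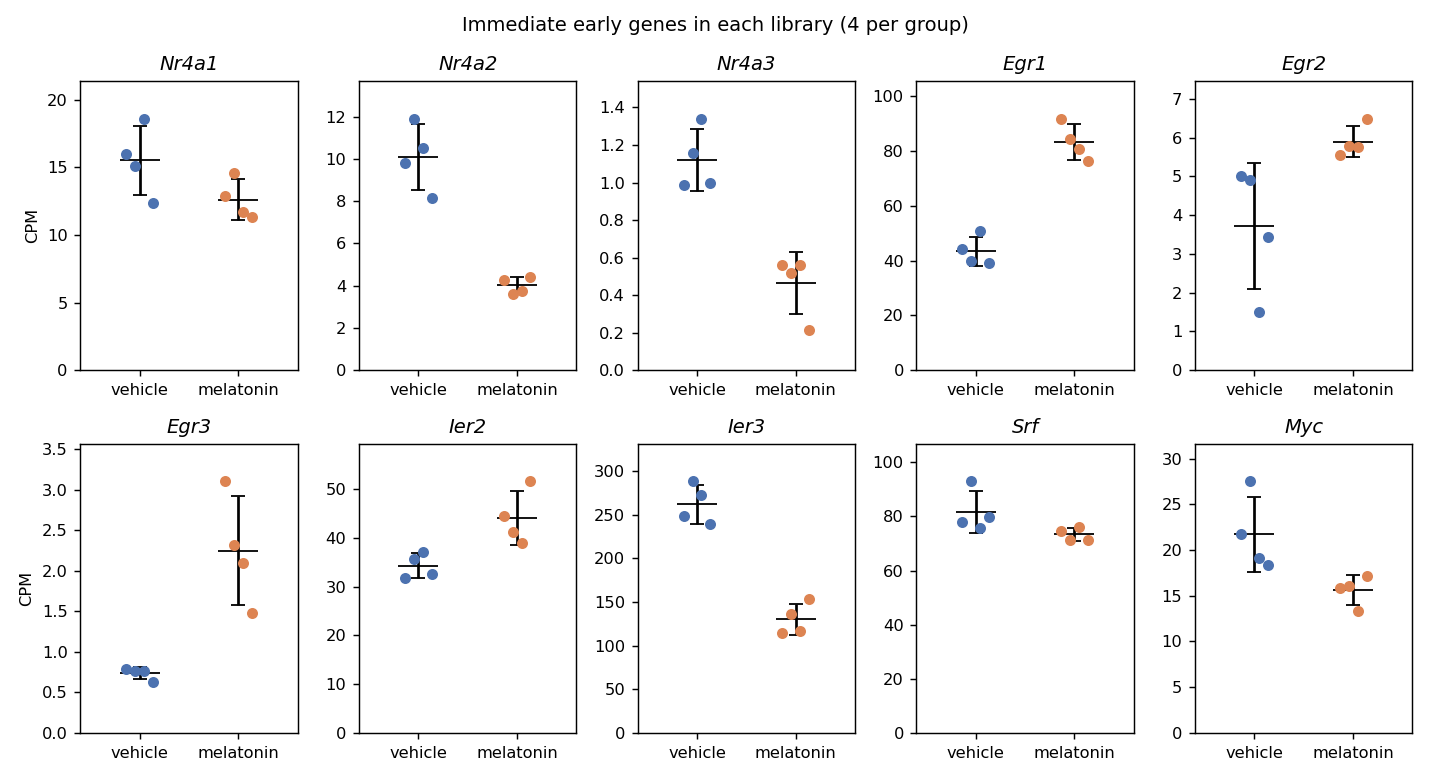
CPM of the 10 genes in each of 4 vehicle and 4 melatonin libraries (points), with the group mean and SD (bars), each panel starting at 0. Egr1, Egr2, Egr3 and Ier2 are higher in every melatonin library, Nr4a2, Nr4a3, Ier3 and Myc are lower in every one, and the groups overlap for Nr4a1 and Srf.

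Among the NR4A genes, Nr4a1 (Nur77; ENSMUSG00000023034, chromosome 15, 101254269 to 101274795, plus strand), a receptor gene known for rapid induction in many cell types, was the most abundant. It was at 16, 15.1, 18.6 and 12.4 CPM in vehicle replicates 1 to 4 and at 12.9, 14.6, 11.7 and 11.3 CPM in melatonin replicates 1 to 4. The lowest vehicle library lay inside the range of the melatonin libraries, so the groups overlapped. The log2 fold change was -0.30 ± 0.134 (standard error) with an edgeR adjusted p of 0.11 and a 95% interval of -0.60 to 0.00069. Without vehicle replicate 4 the value was -0.39 and the edgeR adjusted p was 0.041.

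Nr4a2 (Nurr1; ENSMUSG00000026826, chromosome 2, 57106830 to 57124003, minus strand), the receptor gene best known from dopaminergic neurons, was at 9.8, 11.9, 10.5 and 8.16 CPM with vehicle. With melatonin it was at 4.26, 3.62, 3.77 and 4.43 CPM, and every melatonin library lay below every vehicle library. It fell by 1.33 ± 0.136 in log2 terms, or 2.51-fold (edgeR adjusted p = 5.6e-05). The spread among the melatonin libraries was an SD of 0.386 CPM around a mean of 4.02 CPM.

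Nr4a3 (Nor1; ENSMUSG00000028341, chromosome 4, 48045153 to 48086447, plus strand), the least abundant receptor of the family, rested on few reads. It had 49, 50, 61 and 50 counts in the vehicle libraries and 29, 22, 30 and 8 counts in the melatonin libraries, which is 0.986, 1.16, 1.34 and 1.0 CPM against 0.561, 0.52, 0.56 and 0.215 CPM. The groups did not overlap, and melatonin replicate 4 lay far below the other 3. Nr4a3 fell by 1.25 ± 0.297 in log2 terms (edgeR adjusted p = 0.0087), and by 1.02 ± 0.226 without melatonin replicate 4 (edgeR adjusted p = 0.0056).

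Levels per kilobase of exon put Nr4a1 at 4.42 and Nr4a2 at 2.48 CPM per kb with vehicle, and at 3.59 and 0.99 CPM per kb with melatonin, while Nr4a3 was at 0.187 and 0.0775. Nr4a1 therefore made up 62.3% ± 3.26 (SD, n = 4) of the summed NR4A level per kb with vehicle and 76.9% ± 2.86 with melatonin. The share of Nr4a2 was 35.1% ± 3.26 with vehicle and 21.4% ± 3.15 with melatonin. The shares of these receptors did not overlap between the groups, at 57.9% to 65.5% against 74.1% to 80.9% for Nr4a1. Summed over the 3 genes the level was 7.09 ± 1.01 CPM per kb with vehicle and 4.66 ± 0.38 CPM per kb with melatonin.

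The EGR genes were higher with melatonin where they passed. Egr1 (ENSMUSG00000038418, chromosome 18, 34859823 to 34864984, plus strand), the most abundant of the family and a serum-induced zinc finger factor gene, was at 44.1, 39.7, 50.7 and 39.1 CPM with vehicle. It was at 91.8, 84.3, 80.8 and 76.4 CPM with melatonin, and no library of one group reached the range of the other. It rose by a log2 fold change of 0.94 ± 0.0968, or 1.92-fold (edgeR adjusted p = 5.7e-05). Values without any one library ran from 0.90 to 1.02.

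Egr3 (ENSMUSG00000033730, chromosome 14, 70077203 to 70082614, plus strand), a relative known from lymphocytes and muscle spindles, had the largest fold change of the 10. It had 39, 33, 35 and 31 counts with vehicle and 160, 98, 112 and 55 counts with melatonin. In CPM it was at 0.785, 0.764, 0.767 and 0.622 with vehicle and at 3.1, 2.32, 2.09 and 1.48 with melatonin, so the lowest melatonin library was above every vehicle library. The melatonin libraries differed more among themselves (SD 0.67 CPM) than the vehicle libraries (SD 0.0757 CPM). The log2 fold change was 1.61 ± 0.241, or 3.06-fold (edgeR adjusted p = 0.00059), and 1.43 to 1.77 when each library was left out in turn.

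Egr2 (Krox20; ENSMUSG00000037868, chromosome 10, 67535475 to 67542188, plus strand), a factor gene of Schwann cell myelination and also of adipogenesis in mouse preadipocyte lines, was at 5.01, 4.91, 1.51 and 3.45 CPM with vehicle. With melatonin it was at 5.56, 5.79, 5.77 and 6.49 CPM, above every vehicle library. Vehicle replicate 3 held 69 counts while the other vehicle libraries held 172 to 249. The log2 fold change was 0.66 ± 0.307 with an edgeR adjusted p of 0.12 and a 95% interval of -0.03 to 1.36, so this gene did not pass although its groups did not overlap. Without vehicle replicate 3 the value was 0.40 ± 0.157 (edgeR adjusted p = 0.085). A lack of overlap held for 37.7% of all tested genes and for 8 of these 10.

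Per kilobase, Egr1 took 88.3% ± 4.6 of the summed EGR level with vehicle and 89.2% ± 0.592 with melatonin. Egr2 took 10.2% ± 4.53 and 8.4% ± 1.14, and Egr3 took 1.52% ± 0.102 and 2.42% ± 0.553. The summed level of the 3 EGR genes was 9.87 to 11.9 CPM per kb in the vehicle libraries and 19.3 to 22.8 CPM per kb in the melatonin libraries. With vehicle the EGR sum was 10.9 ± 0.936 and the NR4A sum 7.09 ± 1.01 CPM per kb, and with melatonin they were 20.8 ± 1.5 and 4.66 ± 0.38.

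**Figure D2:**
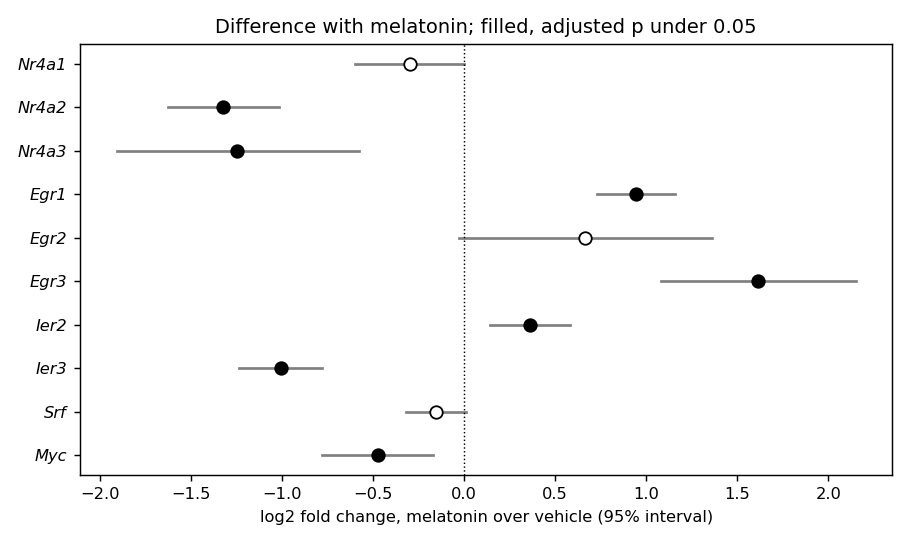
Log2 fold change of melatonin over vehicle for each of the 10 genes (points) with its 95% interval (lines), filled where the edgeR adjusted p was under 0.05. Values run from -1.33 for Nr4a2 to 1.61 for Egr3, and the intervals of Nr4a1, Egr2 and Srf include 0.

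The IER genes went opposite ways. Ier3 (IEX-1; ENSMUSG00000003541, chromosome 17, 35821684 to 35822923, plus strand), a small survival and stress gene that NF-kB is known to induce, was the most abundant of the 10 genes. It was at 248, 288, 272 and 239 CPM with vehicle and at 115, 136, 117 and 153 CPM with melatonin, without overlap. It fell by 1.01 ± 0.104 on the log2 scale, or 2.01-fold (edgeR adjusted p = 5.7e-05). Per kb of exon it stood at the 98.6 percentile of tested genes with vehicle and at the 97.4 percentile with melatonin, so a gene near the top of the ranking stayed near it.

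Ier2 (ENSMUSG00000053560, chromosome 8, 84661331 to 84662852, minus strand), a serum-induced gene of a single exon, was at 31.7, 35.7, 37.2 and 32.6 CPM with vehicle. It was at 44.6, 41.3, 38.9 and 51.6 CPM with melatonin, and the closest libraries, at 37.2 and 38.9 CPM, lay near each other. It rose by a log2 fold change of 0.36 ± 0.0986, or 1.29-fold (edgeR adjusted p = 0.016). The call was lost without vehicle replicate 1 (0.325 ± 0.108, edgeR adjusted p = 0.051).

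Srf (ENSMUSG00000015605, chromosome 17, 46548329 to 46556175, minus strand), which encodes the serum response factor itself, was at 78, 92.9, 75.6 and 79.8 CPM with vehicle and at 74.7, 71.2, 76.1 and 71.4 CPM with melatonin. The groups overlapped, and apart from vehicle replicate 2 all libraries lay between 71.2 and 79.8 CPM. The log2 fold change was -0.15 ± 0.0749 (edgeR adjusted p = 0.14) with a 95% interval of -0.32 to 0.01, and it was -0.085 ± 0.0648 without vehicle replicate 2. With library totals as the only scaling it was 0.004 (edgeR adjusted p = 0.97).

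Myc (ENSMUSG00000022346, chromosome 15, 61985391 to 61990374, plus strand), the growth-promoting factor gene, was at 21.8, 27.5, 19.1 and 18.4 CPM with vehicle and at 15.8, 16.1, 13.3 and 17.2 CPM with melatonin. The groups did not overlap, but the closest libraries were 18.4 and 17.2 CPM. It fell by 0.47 ± 0.137 on the log2 scale, or 1.39-fold (edgeR adjusted p = 0.022). The call was lost without melatonin replicate 1 (-0.47, edgeR adjusted p = 0.055), without melatonin replicate 3 (-0.39, edgeR adjusted p = 0.065) and with library totals as the only scaling (-0.32, edgeR adjusted p = 0.087), which moves the median of all genes from 0.014 to 0.171.

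Ordered by level per kb with vehicle, the genes ran Ier3 (232 CPM per kb), Srf (28.2), Ier2 (22.5), Egr1 (9.67), Myc (7.98), Nr4a1 (4.42), Nr4a2 (2.48), Egr2 (1.09), Nr4a3 (0.187) and Egr3 (0.167). With melatonin the order was Ier3 (115 CPM per kb), Ier2 (29), Srf (25.4), Egr1 (18.6), Myc (5.75), Nr4a1 (3.59), Egr2 (1.74), Nr4a2 (0.99), Egr3 (0.51) and Nr4a3 (0.0775). Neighbours changed places in 3 cases, between Srf and Ier2, between Nr4a2 and Egr2 and between Nr4a3 and Egr3. The differences between neighbours in the order were not tested, and exon length is that of all GENCODE transcripts merged, so a level per kb of a gene with several transcripts is approximate.

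Ratios of 2 genes within a library do not depend on how libraries are scaled, and 8 pairs were compared. The log2 ratio of Ier2 to Ier3 was -2.97, -3.01, -2.87 and -2.87 with vehicle and -1.36, -1.72, -1.59 and -1.57 with melatonin, a difference of 1.37 ± 0.0813 (exact two-sided permutation p = 0.0286, Benjamini-Hochberg p = 0.0763 over the 8 pairs). The log2 ratio of Nr4a1 to Nr4a2 was 0.70, 0.34, 0.83 and 0.60 with vehicle and 1.59, 2.01, 1.63 and 1.35 with melatonin, a difference of 1.03 ± 0.17 with the same exact permutation p of 0.0286. The ratio of Nr4a1 to Nr4a3 differed by 1.04 ± 0.299 (exact permutation p = 0.0286). In these 3 pairs the groups did not overlap, and 0.0286 is the smallest p that 4 against 4 libraries allow. No pair was under 0.05 after the adjustment, whose smallest value was 0.0763. With this floor, a pair that stood alone at the smallest p could not pass the adjustment over 8 pairs, whatever its difference.

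The other 5 pairs overlapped between the groups. The log2 ratio of Egr1 to Egr3 was lower by 0.61 ± 0.182 in size, from 5.86 to 5.25 (exact permutation p = 0.0571), and that of Srf to Myc went from 1.92 to 2.24, a difference of 0.31 ± 0.127 (exact permutation p = 0.0571). The ratio of Nr4a2 to Nr4a3 differed by 0.02 ± 0.385 (exact permutation p = 1), and by -0.35 without melatonin replicate 4. The ratio of Egr1 to Egr2 differed by 0.14 ± 0.482 (Benjamini-Hochberg p = 0.947 from the exact permutation test), and that of Egr2 to Egr3 by -0.75 ± 0.488 (exact permutation p = 0.171), both with vehicle replicate 3 far from the other vehicle libraries. Without that library these ratios differed by 0.60 and -1.16.

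**Figure D3:**
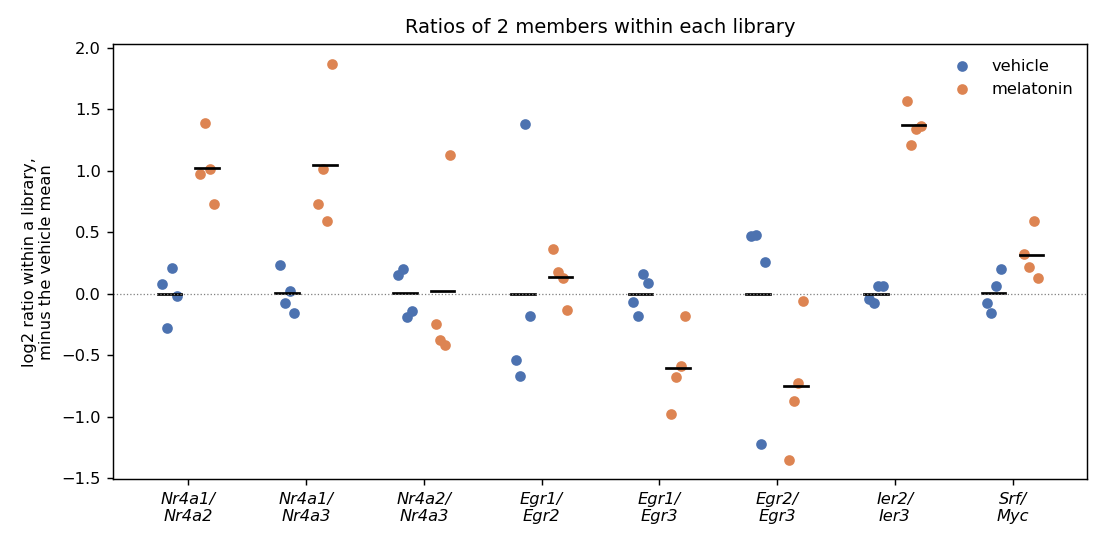
Log2 ratio of 2 genes in each library, less the vehicle mean of that pair (points, 4 per group), with group means as bars. The groups are separate for Nr4a1 to Nr4a2, Nr4a1 to Nr4a3 and Ier2 to Ier3, and overlap for the other 5 pairs.

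Spread between libraries was not shared evenly. Vehicle replicate 4 was the lowest of its group for 6 of the 10 genes and the highest for 0. Melatonin replicate 4 was the lowest of its group for 4 genes, among them Egr1 and Egr3, and the highest for 5, among them Ier2 and Ier3.

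The genes that work with the EGR factors changed as well. Nab1 and Nab2 encode corepressors that bind EGR proteins, and Nab2 is itself known as an EGR-induced gene. Nab2 was at 100, 115, 111 and 103 CPM with vehicle and at 136, 138, 136 and 139 CPM with melatonin, and it rose (0.36 ± 0.0606, edgeR adjusted p = 0.0012). Nab1 was at 72.4, 66.4, 64.7 and 68.3 CPM with vehicle and at 39, 39.2, 38.8 and 33 CPM with melatonin, and it fell by 0.86 ± 0.0758 (edgeR adjusted p = 2.3e-05). The corepressor genes thus moved in opposite directions, without overlap in either case. Of all tested genes, 36.5% passed and 37.7% were without overlap. Egr4, the remaining family gene, had 6 counts over the vehicle libraries and 28 over the melatonin libraries and was below the filter for testing.

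Of the retinoid X receptor genes, whose products pair with Nr4a1 and Nr4a2 proteins, Rxrb rose (46 ± 2.54 to 64.5 ± 3.32 CPM, 0.49 ± 0.0675, edgeR adjusted p = 0.00038). Rxra did not pass (0.40 ± 0.393), and its replicate 2 was low in both groups, at 49.5 and 66.1 CPM against 118 to 136 and 149 to 173 CPM in the others. Rxrg was at about 1 CPM in both groups (0.17 ± 0.362). In this list 1 of 3 genes passed as higher and 0 as lower, beside 18.1% and 18.5% of all tested genes, and at an unadjusted edgeR p under 0.05 or with DESeq2 or limma-voom 0 were lower as well.

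Among cofactors of SRF, the ternary complex factors Elk1 and Elk3 had opposite changes. Elk3 was at 121, 117, 115 and 103 CPM with vehicle and at 50.4, 56.1, 48.5 and 56.2 CPM with melatonin, and it fell by 1.11 ± 0.0762 (edgeR adjusted p = 5.2e-06). Elk1 was at 42.2, 42.4, 41.3 and 44.6 CPM with vehicle and at 61.2, 66.2, 62.3 and 58 CPM with melatonin, and it rose (0.54 ± 0.0641, edgeR adjusted p = 0.00014). Elk4 (-0.01 ± 0.0794) and the actin-regulated coactivator gene Mrtfa (-0.07 ± 0.0596) did not pass. Its relative Mrtfb did not pass either (0.14 ± 0.169), but without melatonin replicate 4 it did (0.31 ± 0.0802, edgeR adjusted p = 0.013). The smooth muscle coactivator gene Myocd had 13, 0, 6 and 3 counts in the vehicle libraries and 0 in each melatonin library, where 0 allows up to 3 counts, and it was not tested.

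Of 18 cytoskeletal genes known as SRF targets, 12 fell and 0 rose, against 18.5% lower among all tested genes, and their median log2 fold change was -0.50 beside 0.014 for all tested genes. The 3 with the smallest p were Tpm1 (373 ± 12.4 to 241 ± 4.37 CPM), Tpm4 (667 ± 50.5 to 339 ± 38.3 CPM), which encode tropomyosins, and the integrin gene Itga5 (297 ± 7.03 to 209 ± 7.82 CPM). Their adjusted p-values in edgeR were 2.1e-05, 3.2e-05 and 9.2e-05. With library totals as the only scaling 9 fell and the median was -0.35, and the leave-one-out fits gave 9 to 13. In DESeq2 and limma-voom 0 rose as well, and at an unadjusted p under 0.05 edgeR gave 0 and DESeq2 gave 1 higher. The levels of these genes are known to differ between fibroblasts, mural cells and adipocytes, and the part of the adipocyte and mural marker sums given above was not tested.

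MAX is the shared partner of MYC and the MXD proteins, and the MYC network list also held Mlx, Mlxip and Mlxipl. In this list 3 of 11 tested genes rose and 2 fell, beside 18.1% and 18.5% of all tested genes. Mycl, a MYC relative, was at 2.51, 2.73, 3.66 and 2.81 CPM with vehicle and at 1.45, 1.21, 1.06 and 1.23 CPM with melatonin, and it fell by 1.24 ± 0.176 (edgeR adjusted p = 0.00044). The MYC antagonist genes Mxd3 (5.08 ± 0.299 to 8.76 ± 1.96 CPM, edgeR adjusted p = 0.0027) and Mxd4 (239 ± 8.04 to 302 ± 7.76 CPM, edgeR adjusted p = 0.0011) rose, and Mxi1 fell (55 ± 3.28 to 39.5 ± 2.98 CPM, edgeR adjusted p = 0.00094). Mlxipl, which encodes the carbohydrate response factor ChREBP and is also an adipocyte gene, rose by a log2 fold change of 3.52 ± 0.31 (edgeR adjusted p = 2.3e-05). Max (0.07), Mnt (0.05), Mga (-0.05), Mlx (0.23), Mlxip (-0.38) and Mxd1 (-0.25) did not pass, although Max passed with library totals as the only scaling (0.23, edgeR adjusted p = 0.037). Mycn had 17 counts over the vehicle libraries and 24 over the melatonin libraries and was not tested.

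Of 22 tested genes of ribosome production and growth to which MYC is known to bind, 6 rose and 2 fell, beside 18.1% and 18.5% of all tested genes, with a median log2 fold change of 0.07 beside 0.014. Apex1, a DNA repair nuclease gene (25.3 ± 2.27 to 39.7 ± 5.18 CPM), and the cell cycle kinase gene Cdk4 (149.7 ± 7.39 to 221 ± 34.4 CPM) rose, while the ribosome assembly gene Wdr43 fell (26.9 ± 0.711 to 19 ± 1.48 CPM). Their edgeR adjusted p-values were 0.001, 0.0023 and 0.00072. With library totals as the only scaling 10 rose and 1 fell. In the leave-one-out fits 4 to 5 rose and 1 to 3 fell, with 1 lower without vehicle replicate 3 or 4 or melatonin replicate 1, 2 or 3.

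In the ERK cascade, which phosphorylates the ternary complex factors, 5 of 17 genes rose, 2 fell and 10 did not pass, beside 18.1% higher and 18.5% lower among all tested genes. Mknk2, a kinase gene downstream of ERK, was at 116 to 127 CPM with vehicle and at 278 to 316 CPM with melatonin (1.33 ± 0.0642, edgeR adjusted p = 7.5e-07). Map2k1, which encodes the kinase MEK1, fell from 228 ± 16.4 to 135 ± 7.19 CPM (edgeR adjusted p = 3.3e-05), and Rps6ka4, which encodes the kinase MSK2, fell from 144 ± 15 to 80.7 ± 3.79 CPM (edgeR adjusted p = 4.8e-05). Transcripts of kinases say nothing of their activity. With library totals as the only scaling 8 rose and 2 fell.

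Of 11 genes for CREB, its coactivators and the salt-inducible kinases that restrain them, 3 rose and 1 fell, beside 18.1% and 18.5% of all tested genes. Sik2 rose (1.10 ± 0.24, edgeR adjusted p = 0.0067) from 15.1 to 20 CPM with vehicle to 40.9, 44.8, 47.1 and 20.3 CPM with melatonin, where replicate 4 was close to the vehicle libraries. The coactivator gene Crtc1 rose (28.6 ± 1.22 to 37.5 ± 3.77 CPM, edgeR adjusted p = 0.0052). Crtc3 rose less (0.25 ± 0.0817, edgeR adjusted p = 0.034) and lost its call in 6 of 8 leave-one-out fits, where the adjusted p reached 0.093. Crem, which encodes both activators and a cyclic AMP-induced repressor, fell by 0.39 ± 0.117 (edgeR adjusted p = 0.025) and lost its call in 5 of 8 leave-one-out fits, where the adjusted p reached 0.082, and with library totals alone (-0.23, edgeR adjusted p = 0.14). Creb1 (-0.37), Atf1 (-0.20), Crtc2 (0.06), Crebbp (0.27), Ep300 (-0.10), Sik1 (-0.08) and Sik3 (-0.09) did not pass.

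**Figure D4:**
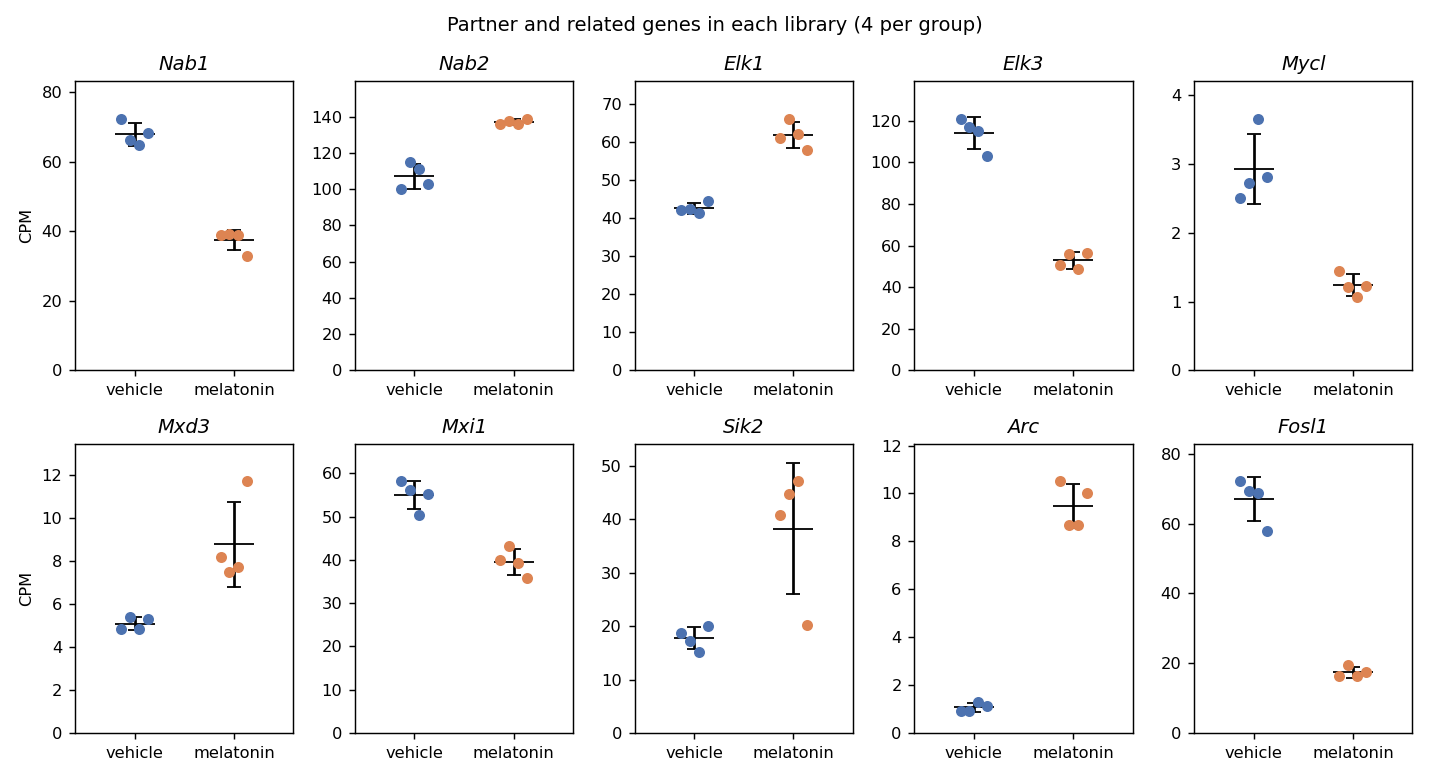
CPM of 10 genes from the lists of partners, regulators and other immediate early genes in each of 4 vehicle and 4 melatonin libraries (points), with mean and SD (bars). Nab1 and Elk3 are lower and Nab2 and Elk1 higher in every melatonin library, and Sik2 in melatonin replicate 4, at 20.3 CPM, is close to the vehicle libraries.

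Other immediate early genes were more often lower than higher. Of 38 tested, 5 rose and 16 fell, beside 18.1% and 18.5% of all tested genes, and the median log2 fold change was -0.21. Arc, an immediate early gene best known from neurons, was at 0.925, 0.903, 1.29 and 1.14 CPM with vehicle and at 10.5, 8.7, 8.7 and 10 CPM with melatonin (3.15 ± 0.151, edgeR adjusted p = 7.5e-07). Fosl1, the gene of the AP-1 subunit FRA1, was at 72.1, 69.3, 68.9 and 57.8 CPM with vehicle and at 16.3, 19.5, 16.2 and 17.4 CPM with melatonin (-1.95 ± 0.0949, edgeR adjusted p = 7.7e-07). Maff, a small MAF factor gene, fell from 124 to 143 CPM with vehicle to 27.5 to 45.5 CPM with melatonin (edgeR adjusted p = 9.3e-06). With library totals as the only scaling 10 rose and 14 fell, with a median of -0.05. The number that rose was 3 without vehicle replicate 1, 2 or 4 or melatonin replicate 1 or 2, while 15 to 19 fell in the leave-one-out fits.

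**Figure D5:**
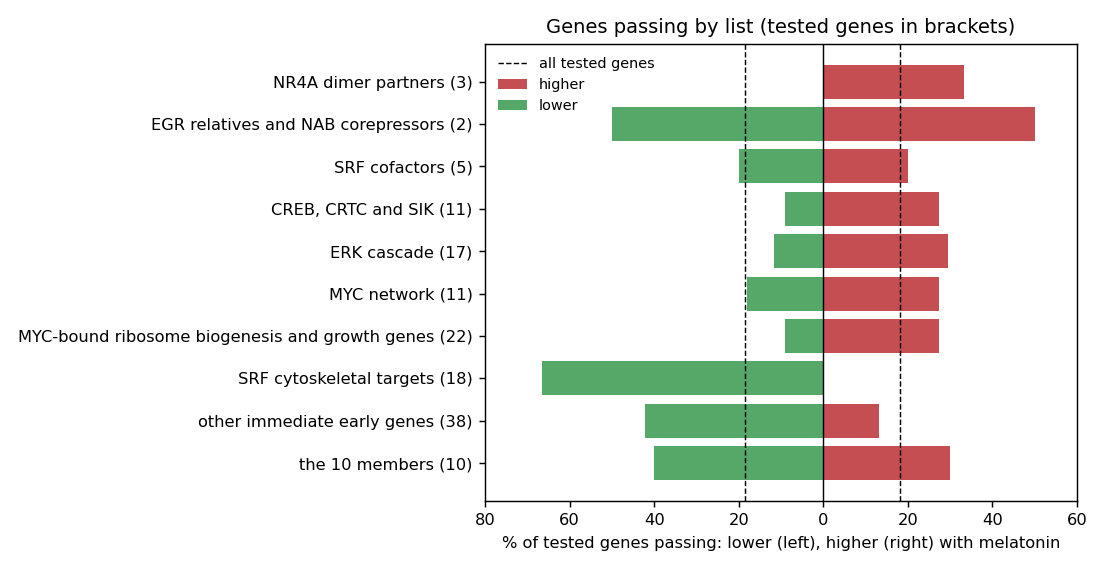
Share of tested genes that passed an edgeR adjusted p of 0.05 as higher (right of 0) or lower (left of 0) with melatonin, for each list and for the 10 genes, with the number tested in brackets and the shares of all tested genes, 18.1% and 18.5%, as dashed lines. The SRF cytoskeletal list has 12 of 18 genes lower and 0 higher, and the short lists at the top hold 2 to 5 genes.

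For each of the 7 genes that passed, the tested gene with the most similar course over the 8 libraries was found among 16379 genes, as the smallest root mean square difference of log2(CPM + 0.5) after centring. The nearest was Gm14005 to Nr4a2 (0.0826), Rbm47 to Nr4a3 (0.0678), Dpysl4 to Egr1 (0.0795) and Abcg1 to Egr3 (0.136). It was Sergef to Ier2 (0.0301), Ctsh to Ier3 (0.0547) and Limd2 to Myc (0.0634). Ctsh, which encodes a lysosomal cathepsin, went from 226 ± 12 to 113 ± 14.9 CPM. Gm14005 went from 8.02 ± 0.791 to 3.13 ± 0.456 CPM. Abcg1, a sterol exporter gene, went from 9.81 ± 1.38 to 23 ± 4.43 CPM. These are descriptions over 8 libraries that share the treatment, and the added 0.5 CPM brings the low genes Nr4a3 and Egr3 closer to genes with smaller fold changes.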

How the data were processed

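The authors deposited raw counts per Ensembl gene for 8 libraries. Build mm10, HISAT2 2.0, Trimmomatic 0.36, StringTie 1.3.3b, FastQC 0.11.2, DESeq2 1.12.4 and bedtools 2.26.0 are named by the submitters' processing notes. How reads were assigned to genes, with which annotation and strand setting, is not given in the sources used here. Columns prefixed con were read as vehicle. Every gene totals at least 11 counts. Symbols, positions and merged exon lengths came from GENCODE M21 (20720 of 20781 IDs found). No other gene in the count table overlaps the 10 genes.

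Genes were filtered with filterByExpr, scaled by TMM and tested with edgeR 4.0.16 (robust quasi-likelihood F-test, group as the only term, Benjamini-Hochberg over 16565 genes, threshold 0.05). Standard errors are the log2 fold change divided by the square root of F. Ratios used log2(count + 0.5) and exact permutation over 70 splits (scipy 1.17.1). Also run were limma-voom (limma 3.58.1), DESeq2 1.42.0, other scalings, filters and thresholds, the replicate block and each library left out. The code was tested on simulated data.

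The 10 genes and the lists were chosen with earlier results of these data known. Named are the 10 genes, the 3 genes with the smallest p in each of 9 lists, every gene of lists with up to 12 symbols, and the nearest gene by course. Intervals cover counting and replicate spread as fitted. No 2 libraries of a group matched within sampling noise (chi-square of 23.5 to 74.4 per gene). Same-numbered libraries did not deviate together over all tested genes, which does not exclude pairing.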

Additional observations from a re-analysis of the deposited data

Results flagged for a closer look

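In 20 groups of 4 libraries (10 genes, 2 treatments), a test for a library far from the others marked 2 values, and chance marks about 1 in 20. Nr4a3 was at 0.215 CPM in melatonin replicate 4, below the other 3 melatonin libraries, and this rests on 8 counts. Egr3 was at 0.622 CPM in vehicle replicate 4, below 3 vehicle libraries that lie close together, and this rests on 31 counts.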

How the results depend on the processing

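Nr4a2, Nr4a3, Egr1, Egr3 and Ier3 kept their direction and their call in every alternative that could be run, and Nr4a3 was dropped by the filter of at least 1 CPM in at least 4 libraries. The number of the 10 genes passing was 6 to 8 in the leave-one-out fits, and 5 at an adjusted p under 0.01. Ier2 lost its call with the replicate block (0.36, adjusted p = 0.053), Myc with library totals alone (-0.32), and Srf reached 0.004 with that scaling. Leave-one-out values were 0.29 to 0.43 for Ier2, -0.55 to -0.34 for Myc, -0.19 to -0.09 for Srf and -0.39 to -0.20 for Nr4a1. Leave-one-out log2 ratios were -0.35 to 0.16 for Nr4a2 to Nr4a3 and -0.08 to 0.60 for Egr1 to Egr2, -1.16 to -0.55 for Egr2 to Egr3, and with a pseudocount of 1 the former was -0.01. Over all genes 6054 passed, 3865 (1754 higher) at an adjusted p under 0.01, 5099 were higher with library totals alone (69.5% of those passing, against 49.4%), and 4942 passed with the replicate block. Correlations of the deviations of same-numbered libraries were -0.0707 to 0.0378, within the -0.179 to 0.231 of libraries with different numbers. These values show no sign of pairing over all tested genes, but they cannot exclude it. The block changed no other call among the 10 genes. With it Rxra passed (0.40, edgeR adjusted p = 0.016), and Crem (0.069) and Crtc3 (0.084) lost their calls. In the same fit 3 MYC-bound genes rose and 1 fell, 3 other immediate early genes rose, and 1 SRF cytoskeletal gene rose. The causes were not tested. Few counts limit Nr4a3 and Egr3, and 4 libraries per group limit the ratios.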
